A study of Drosophila melanogaster with 4 samples.

Results

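The 3 genes described here are Cpr60D, obst-B and Acp65Aa, which were chosen by the accession of their probes on a Drosophila melanogaster expression array (RH24125, GH02976 and NM_057934). They are 3 of the 26228 accessions, or targets, that the array's 32162 gene probes measure, and each has 1 probe with 1 spot on every array. Total RNA was measured from whole embryos raised at 25°C to late stage 16 and early stage 17. The mutant embryos were homozygous for grhIM (+; cn, grhIM, bw, sp; +), an allele of grainy head with a stop codon in the region of the DNA-binding domain, and were picked as progeny without the fluorescent CKG balancer from parents that carried 1 copy of the allele. The wild-type embryos were y; cn, bw, sp; +, so both genotypes carried cn, bw and sp and they also differed at y. There were 2 replicates of each genotype, each a pool of about 500 embryos, measured on 4 arrays in 1 colour.

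The insect cuticle is an extracellular barrier that epidermal, tracheal, foregut and hindgut cells secrete at their apical side, and in the embryo it is laid down during the stages sampled here. It is built from chitin, a polymer of N-acetylglucosamine, and from proteins that bind chitin and set its stiffness. Grainy head (GRH) is a transcription factor of these barrier epithelia. Cpr60D and Acp65Aa encode cuticle proteins of the CPR family, whose members bind chitin through the Rebers and Riddiford domain, and obst-B encodes an obstructor protein, a secreted protein with chitin-binding domains of the peritrophin type. The study placed all 3 in its category of cuticle formation and chitin metabolism.

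In the RefSeq gene table for assembly Release 6, Cpr60D is a protein-coding gene on arm 2R that spans 725 bases and has 2 RefSeq transcripts. Its neighbours are CG3663 and CG30161, and none of the 4 genes on either side carries a cuticle family name. The obst-B gene spans 6265 bases of arm 2L with 1 RefSeq transcript and lies between CG13127 and CG33301, with Cpr31A as the fourth gene on one side. Acp65Aa spans 696 bases of arm 3L with 1 RefSeq transcript. It sits in a cluster of cuticle genes: 6 of the 8 genes around it have such a name, with Lcp65Aa next to it and Lcp65Ab1, Cpr65Ax2, Cpr65Ay and Cpr65Az close by. The table's start and end positions are on another build than the array and are not used here. Probe sequences were not analysed here, so how far the Acp65Aa probe can bind transcripts of related genes in that cluster was not tested.

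Transcripts of all 3 genes gave lower signals in grhIM than in wild-type embryos, and for each gene both grhIM arrays lay below both wild-type arrays, as was so for 33.6% of the 20349 tested targets. Cpr60D fell 136-fold and obst-B fell 3.95-fold, and both were called at a limma adjusted p under 0.01. The Cpr60D spot was close to background in grhIM, and its fold was 22.1 when normexp, a background model, was run on the raw median signal and 41.6 in the deposited table. Acp65Aa had a 3.21-fold lower signal and was not called (limma adjusted p 0.0197). So 2 of the 3 were called, both lower, while 9.24% of tested targets were called in either direction and 5.21% were called lower in grhIM. Without wild-type replicate 1 neither of these 2 was called (limma adjusted p 0.0113 for Cpr60D and 0.0145 for obst-B), nor was any other target. The study chose its category on these arrays, so that count is not independent evidence of a direction. RNA came from whole embryos, in which fewer secreting cells and less transcript per cell cannot be told apart.

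**Figure D1:**
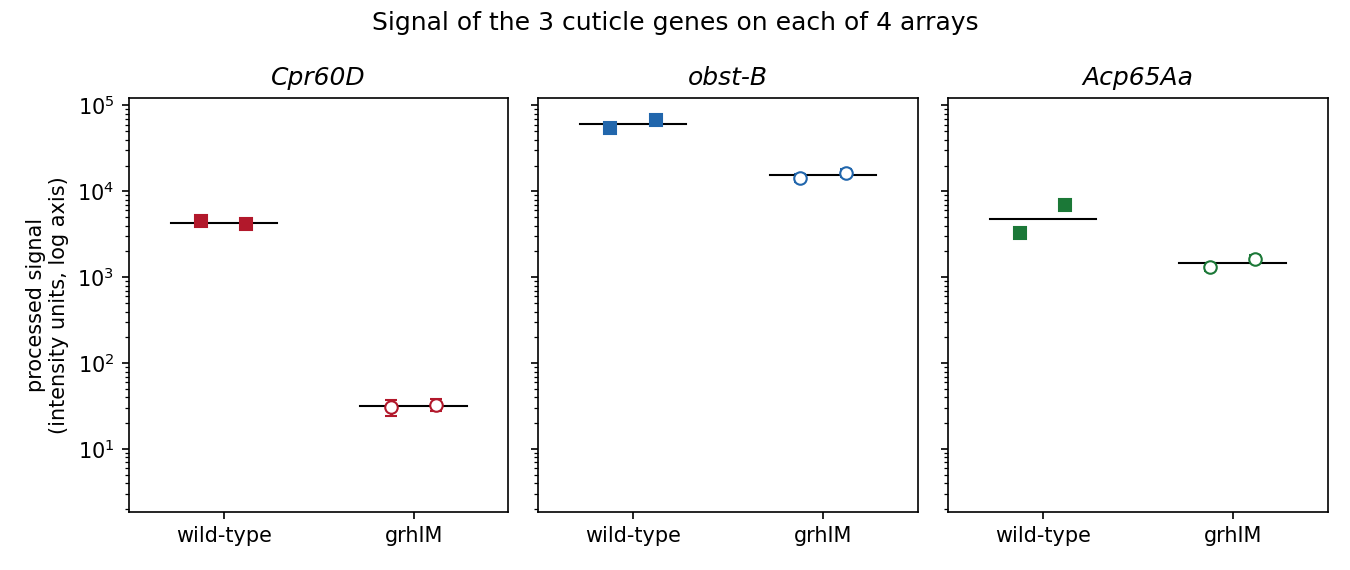
Processed signal (background-subtracted intensity, log axis) of Cpr60D, obst-B and Acp65Aa on the 2 wild-type (filled squares) and 2 grhIM arrays (open circles). Error bars are the scanner software's error for the spot, black lines are the geometric means of 2 arrays, and the grhIM arrays lie below the wild-type arrays in each panel.

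Per array, the 43603 spots for genes had a median raw signal of 557 to 629, and the 153 negative-control spots, designed to match no transcript, one of 53 to 57.5. Between 75.9% and 83.1% of probes were well above background, the scanner software's own mark, and no spot was saturated. The probe that stood for grh, the mutated gene, had a normalised log2 signal of 9.67 and 9.84 in grhIM and 8.75 and 8.89 in wild-type. It was 0.93 ± 0.13 (SE) higher in the mutant (limma adjusted p 0.00948). A stop codon can leave the transcript in place, so this does not check the labels. Of 38 marker genes for hemocytes, fat body, muscle, neurons, glia, trachea, midgut and stage, 0 could be named on the array, so the tissue make-up and the exact age of the pools were not tested.

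The Cpr60D probe gave a signal far above the negative controls in wild-type embryos and close to background in the mutant. Its processed signal was 4510 and 4161 on the wild-type arrays, with a software error of 451 and 416. On the grhIM arrays it was 30.5 and 33.0, with an error of 6.45 and 5.13. The 2 replicates of each genotype thus lay far closer to each other than the genotypes did. After normalisation by cyclic loess, which removes intensity-dependent differences between arrays, its log2 signal was 12.07 ± 0.25 (SD, n = 2) in wild-type and 4.98 ± 0.02 (SD, n = 2) in grhIM. The difference was -7.09 ± 0.15 (SE), with a 95% interval of -7.49 to -6.69 and a limma adjusted p of 0.000206. Any grhIM array compared with any wild-type array gave a difference of 6.90 to 7.28. Both the 95% interval and this range hold for 1 background correction, under which the grhIM replicates were 0.03 apart on the log2 scale. The SE was 0.25 when the median of the negative controls was subtracted instead. Raw median signals gave -5.38 and normexp gave -4.47, both outside the interval, which therefore leaves out the choice of correction.

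In rank, 79.8% of the 32147 probes with usable spots were dimmer than Cpr60D in wild-type and 26.9% were dimmer in grhIM. The share in grhIM was 22.7% with raw median signals, 0.165% when normexp was run on these and 1.51% in the deposited table. That table holds only 24684 of the gene probes, so its share is over a smaller set. This rank thus depended on the processing and on the probes ranked. Only 18 of the 20349 tested targets had a more negative difference, and among the 300 tested targets with a gene name that of Cpr60D was the most negative. Its unadjusted p ranked 7 among all tested targets.

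The size of this change depended on which signal of a very dim spot was used and how it was corrected for background. The raw median signal of the Cpr60D spot was 3512 and 3086 in wild-type and 72.0 and 86.5 in grhIM. On the same grhIM arrays the negative-control spots had medians of 53.0 and 55.5 and highest values of 68.0 and 84.5. The Cpr60D spot therefore lay above all 153 negative controls on each grhIM array, though by only a few units, and it was marked well above background on all 4 arrays. Its local background was 20 and 32 units in grhIM and 18 and 20 units in wild-type. The spot stood 19 and 31 units above the median control in grhIM, against 3459 and 3029 units in wild-type. When that median was subtracted on each array in place of the software's background, an alternative chosen after the data were seen, the difference was -7.06 (limma adjusted p 0.000267). With raw median signals, in which background was left in, the difference was -5.38. It was also -5.38 in the table the authors deposited. With normexp, which models the background and adds an offset of 50 to every value, run on the raw median signal in place of the processed signal, it was -4.47, or 22.1-fold, and remained called (limma adjusted p 0.0021). The direction was the same in all of these, and the fold ranged from 22.1 to 155 over the 19 alternatives run.

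**Figure D2:**
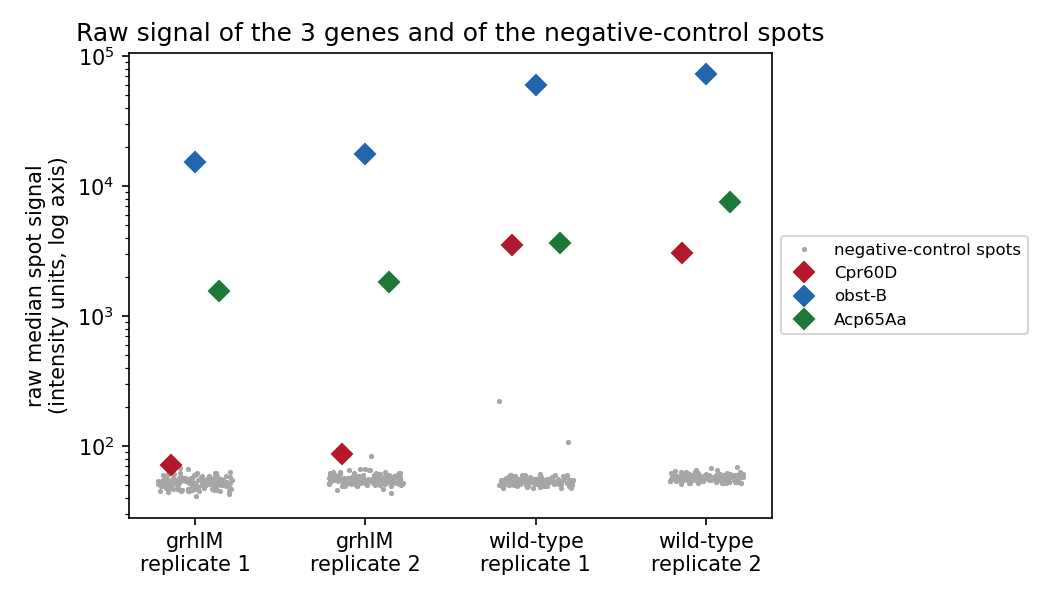
Raw median spot signal (intensity, log axis) of the 3 genes (diamonds) and of the 153 negative-control spots (grey points) on each array. In grhIM the Cpr60D spot, at 72.0 and 86.5, lies just above the highest control, at 68.0 and 84.5, while obst-B and Acp65Aa stay far above all controls.

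The Cpr60D spot lies at row 516 of 532 and column 78 of 85, close to a corner of the array. There the software's correction for position raised the background-subtracted signal by a factor of 1.25 and 1.18 in grhIM and of 1.24 and 1.29 in wild-type, so it acted on both genotypes to a similar degree. The 23 gene spots within 2 rows and 2 columns had a median change of 0.01 on the log2 scale, and the lowest of them changed by -1.91. For obst-B the spots around had a median change of 0.03 and a lowest change of -0.77. For Acp65Aa the median was 0.10 and the lowest was -1.97, below the -1.68 of Acp65Aa itself.

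The obst-B spot was among the brightest on the array in both genotypes, and its replicates were the closest of the 3 genes in wild-type. Its processed signal was 55110 and 67128 in wild-type and 14337 and 16501 in grhIM, and after normalisation the dimmer wild-type array was 3.70 times as bright as the brighter mutant array. The normalised log2 signal was 15.89 ± 0.08 (SD, n = 2) in wild-type and 13.90 ± 0.06 (SD, n = 2) in grhIM. The difference was -1.98 ± 0.12 (SE), with a 95% interval of -2.28 to -1.68 and a limma adjusted p of 0.000814. By brightness obst-B ranked 659 of the 32147 probes in wild-type and 2297 in grhIM. The transcript thus remained well measured in the mutant, at 291 and 322 times the median raw signal of the negative controls. Of the tested targets, 2.34% had a more negative difference. The difference stayed between -2.08 and -1.93 over the 19 alternatives. Those that changed only the filter, probe rule, variance model, threshold or replicate block could not move it.

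Acp65Aa had the widest spread between wild-type replicates of the 3 genes. Its processed signal was 3298 and 6872 in wild-type and 1333 and 1636 in grhIM. The wild-type arrays therefore differed by more than the grhIM arrays did, although after normalisation even the lower wild-type array was 2.24 times as bright as the brighter mutant array. Its normalised log2 signal was 12.21 ± 0.60 (SD, n = 2) in wild-type and 10.53 ± 0.13 (SD, n = 2) in grhIM. The difference of -1.68 ± 0.30 (SE) had a 95% interval of -2.45 to -0.91 and a limma adjusted p of 0.0197. The wild-type replicates were 0.85 apart on the log2 scale, a gap that only 2.70% of tested targets exceeded, and the median gap over all tested targets was 0.20. The difference was -1.26 without wild-type replicate 2, the brighter of these arrays, and -2.11 without wild-type replicate 1.

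The call of Acp65Aa depended on the processing while its direction did not. In the deposited table (-1.61) the limma adjusted p was 0.00897 and with raw median signals (-1.63) it was 0.00972, so the gene was called in both. It was also called with trended and robust variances (limma adjusted p 0.00807), with the replicate number as a block (0.00224) and without grhIM replicate 2 (0.00736). Under the other normalisations the limma adjusted p was 0.0186 to 0.0224. The highest values, neither of them a call, were 0.0447 with normexp on the raw median signal and 0.0475 with no filter. In rank, 81.1% of probes were dimmer than Acp65Aa in wild-type and 65.5% in grhIM.

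**Figure D3:**
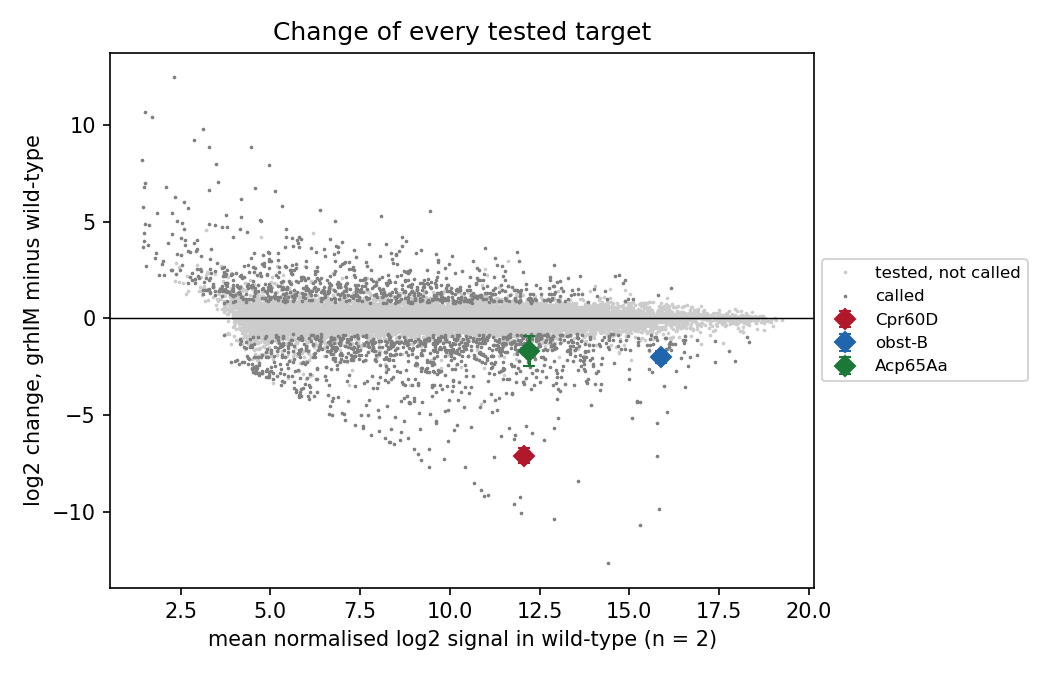
Log2 change of every tested target (grhIM minus wild-type) against its mean normalised log2 signal in wild-type, with called targets in darker grey. Diamonds are the 3 genes with their 95% intervals: Cpr60D lies at -7.09, obst-B at -1.98 at a high signal and Acp65Aa at -1.68.

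Cpr60D fell further than the other 2 genes on these arrays. Since the signals of 2 probes on 1 array share its scaling, the log2 difference between 2 genes was taken within each array and compared between genotypes. Cpr60D minus obst-B was -8.86 and -8.97 in grhIM and -3.58 and -4.04 in wild-type, so the fold change of Cpr60D was 34.4 times that of obst-B. Cpr60D minus Acp65Aa was -5.43 and -5.65 in grhIM and 0.46 and -0.73 in wild-type, a fold change 42.5 times that of Acp65Aa. In both pairs, which share Cpr60D, the genotypes did not overlap. How often other pairs of targets separate in this way was not measured. Among single tested targets, 33.6% had both grhIM arrays below both wild-type arrays. The obst-B signal exceeded that of Acp65Aa by 3.43 and 3.32 in grhIM and by 4.05 and 3.31 in wild-type, which overlap, and the change differed by -0.30. With 2 arrays against 2, the two-sided exact permutation test can reach no p below 0.333, so it cannot separate the genotypes. It gave 0.333 for both pairs with Cpr60D and 1 for obst-B against Acp65Aa, or 0.5, 0.5 and 1 after Benjamini-Hochberg adjustment over the 3 pairs. The larger fall of Cpr60D kept its direction in the 7 processing alternatives run and with any array left out, and was smallest with normexp on the raw median signal, at -2.47 against obst-B and -2.91 against Acp65Aa.

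The wild-type replicates did not deviate in 1 shared direction over the 3 genes. Replicate 1 was the higher for Cpr60D by 0.35 on the log2 scale, and replicate 2 was the higher for obst-B by 0.11 and for Acp65Aa by 0.85. Of the tested targets, 25.4% had a wider wild-type gap than Cpr60D and 69.8% a wider one than obst-B. In grhIM the replicates differed by 0.03, 0.08 and 0.19 for the same genes.

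To place the patterns, each gene was compared with the other 297 named and tested targets by the distance between their log2 values over the 4 arrays, each centred on its own mean, where 0 is an equal pattern. This uses 4 values per gene and is a description only. No named target came near Cpr60D: the closest was CG9757, at a distance of 2.75 and with 10.93 and 10.80 in grhIM and 15.33 and 15.07 in wild-type, followed by TTLL1A at 3.24 and Non1 at 3.67. Among all tested targets, named or not, 73 were nearer to Cpr60D than CG9757. Closest to obst-B were RpL7, which encodes a protein of the large ribosomal subunit, at 0.34, CHKov1 at 0.37 and Madm at 0.46, with 105 of all tested targets nearer than RpL7. The RpL7 target was at 8.41 and 8.41 in grhIM and 10.40 and 10.08 in wild-type. Its name rests on an accession match, and what its probe binds was not tested. CHKov1, at 14.52 and 14.51 in grhIM and 16.00 and 16.34 in wild-type, was also closest to Acp65Aa, at 0.39, before the latrophilin receptor gene Cirl at 0.61 and the neuropeptide gene CNMa at 0.65, with 41 of all tested targets nearer than CHKov1. The members themselves were 0.61 apart for obst-B and Acp65Aa, and 5.12 and 5.48 apart for Cpr60D against these 2.

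The rest of the cuticle programme could not be followed by name. Of the 64 genes that the study lists under cuticle formation and chitin metabolism, 3 (4.69%) matched a probe's accession, the 3 described here. Of these, 2 were called lower, 0 higher and 1 was not called. Over all tested targets, 5.21% were called lower and 9.24% in either direction. The study drew its list from these same arrays, so the count is not independent evidence about the category. Of the 153 genes in the gene table whose symbols begin with Cpr, Lcp, Ccp84, Acp65, Acp1, Twdl, Edg, obst, Cht, Cda or Mur, the same 3 matched. None of 32 further genes of chitin synthesis and assembly, 12 of sclerotisation and pigmentation and 9 of septate junctions could be named. The other accessions on the array are not paired with a gene by the table, and these may include probes for the listed genes and further probes for the 3 members, which were not analysed here.

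**Figure D4:**
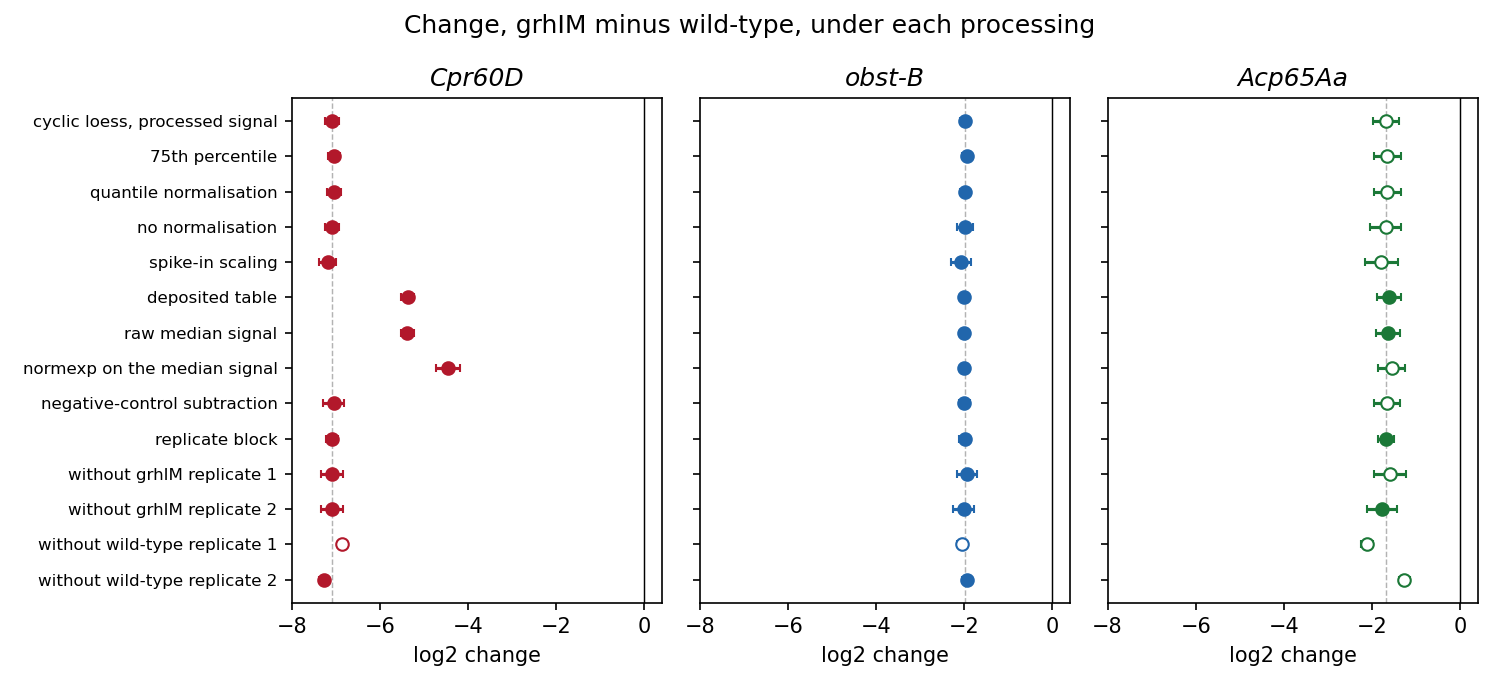
Log2 change (grhIM minus wild-type, bars 1 SE) of the 3 genes under the main processing (top) and 13 alternatives, with filled points for a limma adjusted p under 0.01. All points lie below 0, Cpr60D moves from -7.09 to -4.47 with normexp on the raw median signal, and no gene is called without wild-type replicate 1.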

How the data were processed

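RNA of 2 grhIM and 2 wild-type embryo pools was hybridised to 1-colour Agilent arrays. The deposited scanner files hold intensity values, which the authors obtained from Feature Extraction 10.7.3.1 (Agilent): a processed signal, corrected for background and position within the array, and the raw median signal. Flags of 0 or 1 mark saturated, uneven, outlying and well-above-background spots. A deposited table holds the authors' intensity values after a multiple-loess normalisation of all samples.

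Here log2 processed signals were averaged over the spots of a probe that were not flagged as uneven or outlying. The 15 probes with no such spot on at least 1 array were left out. Cyclic loess over all 4 arrays followed (span 0.7, 3 iterations). A probe was tested if at least 50% of its spots were well above background on both arrays of a genotype, and the brightest probe stood for a target. Genotypes were compared with limma 3.58.1 (R 4.3.3) over all 20349 targets, with Benjamini-Hochberg adjustment and a threshold of 0.01. The fit was also run on simulated data with equal noise for every probe and no filter. That run does not check the calls for dim or variable spots. All arrays lay on 1 slide, with the grhIM arrays next to each other, so place on the slide and genotype cannot be told apart. The labels do not say that replicates came from separate crosses, so p-values measure the spread between pools. Genes were named from unversioned accessions and clone names in the RefSeq table, which matched 363 targets. Other named targets are the 3 nearest in pattern to each member, and grh. The members and lists were chosen with earlier results of these data known. No sequence was read.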

Additional observations from a re-analysis of the deposited data

How the results depend on the processing

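The alternatives covered the scaling between arrays, the background, the filter, the probe rule, the variance model, the threshold, a replicate block and each array left out. All 3 differences stayed below 0 in all 19. The filter, probe rule, variance model, threshold and replicate block left each difference at its main value and could not move it. Those alternatives bear on the calls only, not on direction or size. Without wild-type replicate 1 no target was called (0 of 21669 by limma, with 8438 at an unadjusted p under 0.05 and a smallest adjusted p of 0.0103), so 0 to 3 members were called over the single omissions, in which a lone array is assumed to vary like the other genotype. Over these, Cpr60D was at -7.28 to -6.86 (limma adjusted p 0.0113 without wild-type replicate 1), obst-B at -2.04 to -1.93 (0.0145), and Acp65Aa at -2.11 to -1.26. Acp65Aa was called at adjusted p under 0.05 (-1.68), with trended and robust variances (-1.68) and a replicate block (-1.68), the deposited table (-1.61) and raw median signals (-1.63). The change of obst-B minus that of Acp65Aa ranged from -0.68 to 0.065 and turned positive without wild-type replicate 1. The omissions for these paired differences and the subtraction of negative controls were chosen after seeing the data.

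The 1880 targets called became 541 with normexp on the raw median signal (2190 with the raw median signal alone), 883 with no filter, 4230 at adjusted p under 0.05, 2942 with the replicate block and 0 to 1741 with an array left out (0 without wild-type replicate 1, 960 without wild-type replicate 2, 1148 without grhIM replicate 1). Spike-in scaling shifted the median of all targets to -0.12, which lowers each change by about as much. The share of probes dimmer than Cpr60D in grhIM became 1.51% in the deposited table, 0.165% with normexp on the raw median signal and 22.7% with raw signals, and in wild-type 68.5%, 73.9% and 76.4%. For obst-B the shares were 91.2%, 93.5% and 93.4% in grhIM and, in wild-type, 97.4% in the table and 98.1% with raw signals. For Acp65Aa in grhIM they were 56.5% in the table and 67.0% with raw signals. Shares in the table are over its 24684 probes and the others over 32147, so the sets of probes differ. The cause of each move was not tested.

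Nothing in the labels ties samples of 1 number to a shared batch, and the deviations of same-numbered samples (2 pairs) correlated at 0.25 over targets. The replicate block changed no other call of the 3 genes. Single spots and 2 arrays per genotype limit the precision, and for Cpr60D in grhIM the signal over background limits the fold.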
